A study of Mus musculus with 4 samples.

Results

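The genes described here are 138 autosomal rows of a mouse gene table whose symbol is Gm followed only by digits and which held 1000 or more counts summed over the 4 libraries. The table has 55401 rows, of which 27648 carry such a symbol, and 24620 of those lie on an autosome. A Gm number is a provisional symbol given to a locus predicted by an annotation pipeline before anything is known of its function. They were chosen by this summed level and not the difference between genotypes, so the level of these genes is not a finding. Their totals ran from 1004 to 78924 counts, with a median of 2476. Gm10074 and Gm47882 (1004 counts each) stood just inside the threshold, and Gm6055 (989) and Gm18588 (969) just outside it.

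The libraries were made from poly(A) RNA of C57BL/6 splenic B cells purified with anti-CD43 beads and then activated in culture. The culture lasted 36 h, with anti-IgM at 10 µg/ml plus anti-CD40 at 1 µg/ml. In both genotypes the cells were treated alike. The 2 cKO-labelled libraries come from mice described as an Adar1 conditional knockout in B cells, and the 2 wild-type libraries from wild-type mice. The floxed part of the gene, the Cre line, the ages and the number of mice behind each library are not stated in the labels, so p-values measure only the spread between these libraries, which may be technical. Adar (ADAR1) deaminates adenosine to inosine in double-stranded RNA. In mice its loss is known to let unedited RNA reach sensors such as MDA5 and the kinase PKR, with an interferon response. Many provisional symbols belong to processed pseudogenes, which are copies of a spliced mRNA written back into the genome and near-identical to their source gene. Others belong to long noncoding RNAs or to members of tandem gene families.

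Total counts ran from 17449871 to 17993261 in the cKO-labelled libraries, and from 17327480 to 19669651 in the wild-type libraries, and the 138 genes took between 1.157% and 1.268% of each library. Adar itself stood at 218 and 232 CPM (read counts scaled to a common library size) in the cKO-labelled libraries, against 137 and 150 CPM in the wild-type libraries. It was higher in the libraries labelled cKO by a log2 change of 0.65 ± 0.06 (SE; adjusted p = 3.39e-08 by edgeR's quasi-likelihood test). The whole-gene count thus goes against the label, and without the position of the deleted part it checks nothing. Below, cKO-labelled is used for this reason. Wild-type library 2 stood apart in its ribosomal RNA rows, which took 0.447% of its counts against 0.0451% in wild-type library 1 and 0.053% and 0.038% in the cKO-labelled libraries. Of the B-cell markers, 5 of 6 were lower in the cKO-labelled libraries, with a summed level of 3353 and 3451 CPM, against 4439 and 4410 CPM in wild type.

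All 138 genes passed the filter on low counts. The rule itself sums over both genotypes, so a gene can reach 1000 counts through the genotype in which it is high. Gm49980, for example, had 601 and 547 counts in the cKO-labelled libraries, against 93 and 63 in wild type. Shares of called genes in the set are therefore given as a description. At an adjusted p under 0.05, 34 were called between the genotypes, 19 higher and 15 lower in the cKO-labelled libraries. That is 24.6%, beside 21.7% of the 14180 genes tested (12.2% higher and 9.54% lower), and beside 27.2% of 8056 autosomal genes with other symbols and the same minimum of counts. The share of calls among the 138 genes was therefore near the background. Their median log2 change was 0.004, against -0.006 over all genes tested. In 96 of the 138 the log2 change was smaller than 0.25 in size. A 2-fold change or more was reached by 7 called genes (5.07%, beside 4.88% of all genes tested and 1.97% of the other well-covered autosomal genes), of which 6 were higher and 1, Gm23935, was lower. The libraries of the genotypes did not overlap for 72 genes, 52.2% beside 57.9% of all genes tested and 64.3% of the other well-covered autosomal genes. The 1298 tested autosomal Gm genes under 1000 counts, whose low counts limit what can be called, had 4.93% called (3.08% higher, 1.85% lower; 3.54% at 2-fold or more) and no overlap in 38.4%. Without each library in turn, 14 of the 19 and 7 of the 15 stayed called in the same direction every time.

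**Figure D1:**
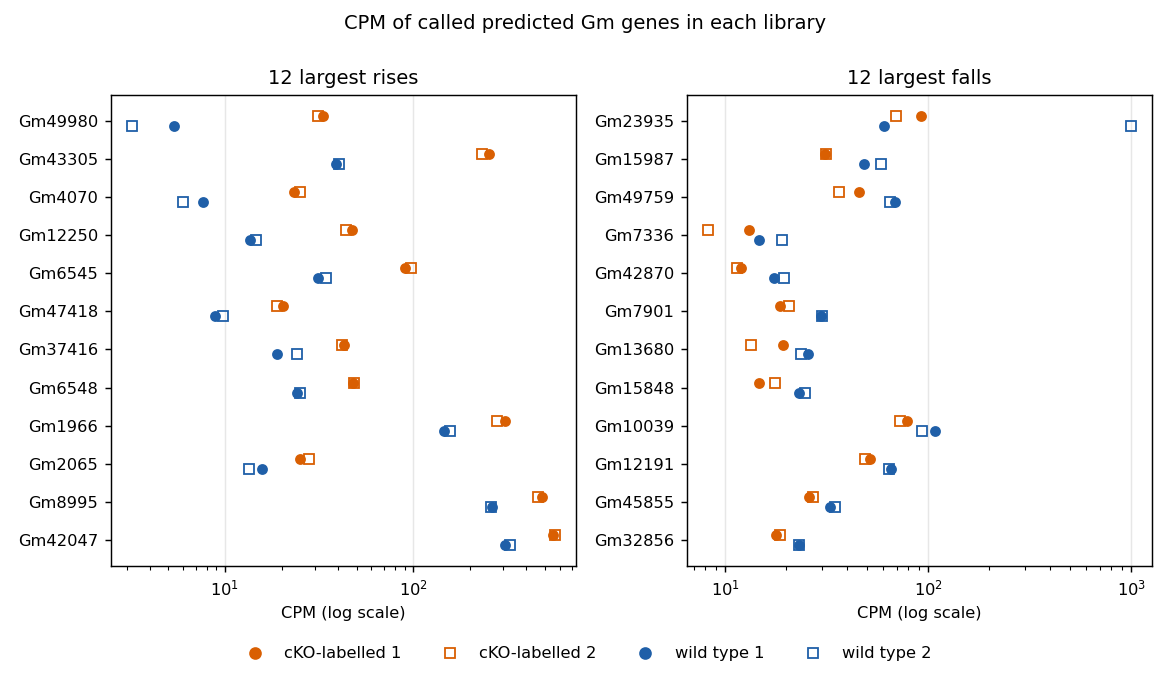
CPM on a log axis of the 12 called Gm genes with the largest rise (left) and the 12 with the largest fall (right), 1 symbol per library, orange for the 2 cKO-labelled and blue for the 2 wild-type libraries. On the left the orange symbols lie to the right of the blue ones in every gene. On the right Gm23935 is the exception to a clean separation, with 1002 CPM in wild-type library 2 alone.

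The description column of the deposited table separates these genes poorly by kind. It calls 27 of them a predicted pseudogene and 111 a predicted gene, whereas GENCODE release M21, in which 137 of the 138 have the same coordinates, classes 98 as pseudogenes. Of those 98, 25 are described as a pseudogene and 73 as a gene, and 2 genes described as pseudogenes, Gm10131 and Gm10282, are protein coding in GENCODE. RefSeq types both Gm10131 and Gm10282 as pseudogenes, as the description does. By description, 2 of the 27 predicted pseudogenes were called higher and 3 lower, against 17 and 12 of the 111 predicted genes. Over all genes tested, 12.2% were called higher and 9.54% lower. A single exon is annotated for 100 of the 138, and their exonic length had a median of 834.5 bases (57 to 16543).

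By GENCODE class, 93 were processed pseudogenes, of which 6 were called higher and 9 lower. Long noncoding RNAs numbered 18, with 5 higher and 3 lower. Protein coding genes numbered 16, with 3 higher and none lower. The 5 unprocessed pseudogenes, a class for decayed gene duplicates, had 2 higher and none lower. All 5 loci of the class TEC, a GENCODE label for loci that await experimental evidence, were called, 3 higher and 2 lower. The remaining gene is typed as a miRNA and was called lower. These class counts stand beside 12.2% called higher and 9.54% called lower over all genes tested. For comparison, 46 processed pseudogenes outside the set with as many counts had 0 higher and 8 lower calls by edgeR's quasi-likelihood test, or 17.4%, with 13 at an unadjusted p under 0.05.

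**Figure D2:**
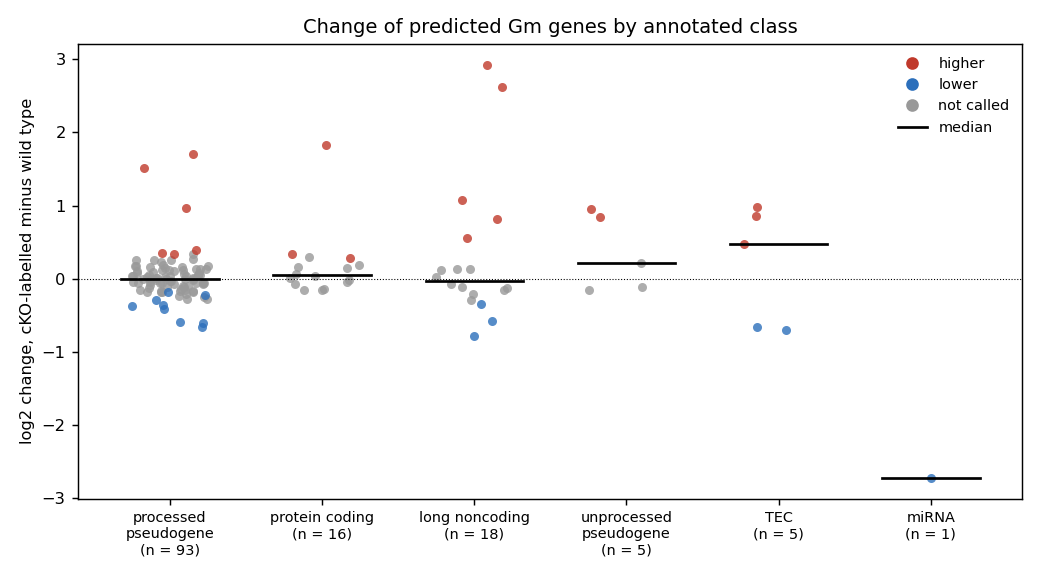
Log2 change (cKO-labelled minus wild type) of each of the 138 genes by GENCODE class, red for called higher, blue for called lower and grey for not called, with a black line at the class median. The 93 processed pseudogenes gather around a median of -0.004, while the 5 TEC loci have no grey point.

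Among genes with a known family, GTPases of the interferon response rose. Gm12250, for which RefSeq gives the synonym Irgb10 and the type protein coding while GENCODE lists it as a processed pseudogene, is an immunity-related GTPase that in mice acts on membranes of intracellular bacteria. It lies on chromosome 11 (GRCm38, 58187739 to 58189012, plus strand). It stood at 47.4 and 44.0 CPM in the cKO-labelled libraries, against 13.5 and 14.6 CPM in wild type. Both cKO-labelled values lay far above both wild-type values. The log2 change was 1.70 ± 0.10 (adjusted p = 7.84e-12 by edgeR). It was no copy of a spliced gene at the limits used here: its best relative, 9930111J21Rik2, matched 68.3% of 1180 aligned bases and was itself higher by 0.44 ± 0.07. In the family of immunity-related GTPases, all 10 tested members of 12 listed were called higher, beside 12.2% of all genes tested. Their log2 changes were 1.06 to 3.90, with a median of 1.92, beside -0.006 over all genes tested.

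The neighbours of Gm12250 are family members too. Igtp starts 10.5 kb away and rose by 1.41 ± 0.07, and Irgm2 starts 10.6 kb away and rose by 1.57 ± 0.11. Mrpl22, a mitochondrial ribosomal protein gene 8.2 kb to the other side, had a log2 change of -0.13 ± 0.10 and was not called (adjusted p = 0.41). Elsewhere on chromosome 11 lies a second cluster of the family, whose first listed gene by position is Irgm1 (1.53 ± 0.06). A pair of Gm genes that are retrocopies of other genes lies outside that cluster, before Irgm1. Gm12184, a copy of the cell-cycle regulator gene Cdk2ap1 that lies 35.3 kb from Irgm1, stood at 15.2 and 15.6 CPM in the cKO-labelled libraries and at 15.5 and 14.5 CPM in wild type. Its log2 change was 0.04 ± 0.13 (adjusted p = 0.88 by edgeR). Trim7, which overlaps Gm12184 on the opposite strand, had 0.01 ± 0.14 and was not called. Gm12183, a copy of the RNA helicase gene Ddx5 that lies 108.3 kb from Irgm1, had 0.04 ± 0.14 (adjusted p = 0.89 by edgeR). Its nearest tested gene, Rack1, had -0.25 ± 0.05 and was called lower. Gm12184 and Gm12183 were chosen after their values were seen.

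The RefSeq window of 250 bases before and 50 after the start of Gm12250 is shown because 4 of these Gm genes hold, in that window, the motif GAAANNGAAA on either strand, a core of the response element bound by interferon-activated factors. Capitals mark the matches, which in both windows lie on the strand opposite to the gene and do not overlap another match. The window lies 3.85 kb upstream of the deposited gene start, since RefSeq (GRCm38.p6) places the start of the gene further out. The second window, from Gm1966, lies 40.56 kb upstream of its deposited start for the same reason.
Gm12250, chr11:58183593-58183892, plus strand: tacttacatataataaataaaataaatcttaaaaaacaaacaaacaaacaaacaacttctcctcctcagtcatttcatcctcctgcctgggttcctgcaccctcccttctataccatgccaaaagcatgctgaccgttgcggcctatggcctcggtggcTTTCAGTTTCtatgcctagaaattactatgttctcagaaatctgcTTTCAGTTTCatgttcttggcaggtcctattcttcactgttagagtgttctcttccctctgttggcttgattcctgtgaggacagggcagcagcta
Gm1966, chr7:106644596-106644895, minus strand: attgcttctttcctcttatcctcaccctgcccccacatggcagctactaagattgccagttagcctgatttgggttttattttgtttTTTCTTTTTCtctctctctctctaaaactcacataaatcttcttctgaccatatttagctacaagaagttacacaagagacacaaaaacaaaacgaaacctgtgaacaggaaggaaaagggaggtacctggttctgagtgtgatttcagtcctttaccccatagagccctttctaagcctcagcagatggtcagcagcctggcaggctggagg

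A RefSeq window existed for 18 of the 138 genes, 7 of them called higher. The motif was found in 4 of those 7, namely Gm12250, Gm1966, Gm2065 and Gm7072, and in none of the 11 others. It stands in 3.99% of the 27025 genes with a window and in 3.44% of all 32851 windows. Among the other immunity-related GTPase genes with a window, 5 of 6 held it. For Gm2065, the window at 83110856 to 83111155 held the motif and the window at 83097887 to 83098186 did not. Gm43305, Gm20559 and Gm37416 rose without these letters in the window.

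The second GTPase group lies on chromosome 7, where relatives of Gvin1, a very large interferon-inducible GTPase, stand in tandem. Gm8995 (106504239 to 106511671, minus strand), a transcribed unprocessed pseudogene, stood at 481 and 458 CPM in the cKO-labelled libraries, against 263 and 261 CPM in wild type. Gm1966 (106596743 to 106604035, minus strand) is an unprocessed pseudogene in GENCODE and protein coding in RefSeq. It had 306 and 280 CPM in the cKO-labelled libraries, against 145 and 156 CPM in wild type. Gm4070 (105895139 to 105953967, minus strand), a protein coding gene with the RefSeq synonym VLIG-1, had 23.2 and 25.1 CPM in the cKO-labelled libraries, against 7.65 and 5.99 CPM in wild type. In all 3 genes the genotypes were separate, and the log2 changes were 0.84 ± 0.06, 0.96 ± 0.06 and 1.83 ± 0.15 (adjusted p = 8.08e-11, 3.76e-11 and 1.49e-09 by edgeR). Gvin1 itself rose by 1.44 ± 0.14. Gm4070 matched Gvin1 at 99.97% of 9005 aligned bases, so the counts of these 2 genes cannot be told apart. Gm8995 and Gm1966 differ from it more (91.8% and 92.9% identity) and together held most of the counts of the cluster, 26336 and 16000 counts against 1118 for Gvin1.

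Of the relatives in the same cluster, 2 were tested and not called. Gm8979 is a locus of 40 counts in all, with 0.72 and 0.52 CPM in the cKO-labelled libraries, against 0.35 and 0.61 CPM in wild type, and a log2 change of 0.35 ± 0.62. Gm4759, 79.8 kb from Gm8995 and 86.8% identical to Gvin1 over 4857 aligned bases, stood at 53.2 and 51.3 CPM in the cKO-labelled libraries, against 40.4 and 49.4 CPM in wild type. Its log2 change was 0.22 ± 0.09 (adjusted p = 0.081), a value given here although the gene was on no list. Of the very large GTPases listed, 4 of 5 tested were called higher, beside 12.2% of all genes tested. Of those 4, 3 are Gm genes of this set. MHC class I genes, listed because many of them also carry Gm symbols, had 10 of 11 tested called higher, with a median of 0.65, but none of their Gm-numbered loci reached 1000 counts. Dendritic cell markers moved in the same direction: 3 of 4 tested (Flt3, Itgax and Zbtb46) were higher, and the 6 together summed to 108 and 113 CPM in the cKO-labelled libraries, against 58.3 and 57.0 CPM in wild type. None of those 6 was at 0 in every library. Plasma cell markers had 3 of 4 tested higher, with sums of 242 and 250 CPM in the cKO-labelled libraries, against 171 and 159 CPM in wild type. Erythroid markers had 2 of 2 tested higher, with sums of 2.83 and 2.98 CPM in the cKO-labelled libraries, against 0.52 and 0.81 CPM in wild type, and 1 of the 3 listed was at 0 in every library. Of the other lists, macrophage (3 tested), T-cell (1 tested) and NK-cell (1 tested) markers had 0 calls. Neutrophil markers had 1 of 2 tested higher. The part of these cell types in the GTPase result was not tested. In bulk libraries, a change in the share of a cell type and a change of RNA per cell cannot be told apart.

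The 2 largest rises of the 138 genes were in long noncoding RNAs for which a transcript alignment found no near-identical protein coding gene elsewhere. Gm49980 is a 2-exon lincRNA on chromosome 18 (30267249 to 30272133, plus strand). It had 33.3 and 31.3 CPM in the cKO-labelled libraries, against 5.39 and 3.20 CPM in wild type, a log2 change of 2.93 ± 0.17 (adjusted p = 2.61e-12). The gene that follows it 614 bases downstream on the same strand, the lipid kinase gene Pik3c3, had 52.8 and 54.1 CPM in the cKO-labelled libraries and 46.8 and 53.7 CPM in wild type. Its log2 change was 0.09 ± 0.08 and it was not called.

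Gm43305 is a processed transcript on chromosome 14 (54292443 to 54297456, minus strand). It had 253 and 232 CPM in the cKO-labelled libraries, against 38.8 and 40.3 CPM in wild type. The log2 change was 2.62 ± 0.07 (adjusted p = 4.87e-18). The tested genes within 50 kb, both to the same side of it, did not rise: Abhd4, a lipase gene 21.8 kb away, had -0.28 ± 0.12 (adjusted p = 0.13), and Dad1, a subunit of the oligosaccharyltransferase 38.3 kb away, fell by 0.19 ± 0.06. Gm42047, a lincRNA on chromosome 8 (121833247 to 121841178, plus strand), was the most abundant of the risen genes in CPM. Its values were 554 and 567 CPM in the cKO-labelled libraries, against 307 and 327 CPM in wild type. It rose by 0.82 ± 0.06 (adjusted p = 1.51e-10), while Klhdc4, 3.7 kb away on the other strand, had -0.06 ± 0.06 and was not called.

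Gm47418, a lincRNA on chromosome 13, had 20.5 and 18.9 CPM in the cKO-labelled libraries, against 8.87 and 9.75 CPM in wild type, and rose by 1.08 ± 0.14 (adjusted p = 2.95e-06). Ercc6l2, a helicase gene of DNA repair 19.8 kb away on the same strand, rose by 0.75 ± 0.06. Gm20559, a processed transcript on chromosome 6, had 63.3 and 59.9 CPM in the cKO-labelled libraries, against 43.8 and 39.7 CPM in wild type, and rose by 0.56 ± 0.08 (adjusted p = 6.95e-06). Gm43197, which overlaps it, had 0.26 ± 0.18 and was not called. Gm20559 also lies 26.1 kb from Samd9l, an interferon-inducible antiviral gene, which rose by 0.74 ± 0.06. Gm2065, a TEC locus on chromosome 9, overlaps the nucleosome-binding protein gene Hmgn3 on the opposite strand. It had 25.01 and 27.99 CPM in the cKO-labelled libraries, against 15.8 and 13.5 CPM in wild type, and rose by 0.86 ± 0.12, while Hmgn3 had 0.01 ± 0.07. Because the library kit does not mark strand, reads from overlapping genes cannot be assigned by strand here.

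Gm6545 on chromosome 19 (12528755 to 12530540, minus strand) is a single-exon locus typed as a processed pseudogene. It had 90.7 and 97.2 CPM in the cKO-labelled libraries, against 31.2 and 34.5 CPM in wild type, a log2 change of 1.51 ± 0.08 (adjusted p = 2.12e-13). Its best relative is Fam111a, a protease gene that restricts viral replication, at 73.2% of 1688 aligned bases, which also lies only 15.2 kb away. Fam111a had 0.08 ± 0.06 and was not called. Another predicted gene 9.0 kb from Gm6545 on the same strand, Gm47242, rose by 1.52 ± 0.16, and the ubiquitin ligase gene Dtx4, 27.3 kb away on that strand, fell by 0.95 ± 0.07. Tested genes at this locus thus moved in both directions. Gm37416, a TEC locus of 318 bases on chromosome 2, had 42.8 and 42.1 CPM in the cKO-labelled libraries, against 18.8 and 24.02 CPM in wild type. It rose by 0.98 ± 0.11 and had no tested gene within 10 kb.

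Gm6548 is the processed pseudogene whose change departed most from that of its source. It is a copy of Eef1a1, the abundant translation elongation factor, on chromosome 17 (78850792 to 78851956, minus strand), 608 bases beyond the end of Eif2ak2 on the same strand. Eif2ak2 encodes PKR, the kinase that halts translation on binding double-stranded RNA. Gm6548 had 48.0 and 48.5 CPM in the cKO-labelled libraries, against 24.2 and 24.99 CPM in wild type, so the genotypes were well apart. It rose by 0.97 ± 0.09 (adjusted p = 1.17e-08). Eif2ak2 rose by 1.37 ± 0.06, with 151 and 150 CPM in the cKO-labelled libraries, against 56.5 and 59.9 CPM in wild type. Eef1a1 had -0.04 ± 0.03 and was not called, and Gpatch11, 2.5 kb away on the opposite strand, had 0.00 ± 0.12. A window of 90 bases is printed because it shows where the copy and its source differ. Capitals mark the 8 mismatches between Gm6548 (bases 959 to 1048 of its transcript) and the coding sequence of Eef1a1 (bases 1300 to 1389), both from GENCODE M21.
Gm6548: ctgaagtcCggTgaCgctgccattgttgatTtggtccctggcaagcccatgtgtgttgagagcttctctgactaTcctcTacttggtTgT
Eef1a1: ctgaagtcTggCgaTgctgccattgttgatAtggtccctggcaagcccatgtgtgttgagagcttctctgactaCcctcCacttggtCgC

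Over its whole length Gm6548 was 96.7% identical to Eef1a1. Its 2622 counts made up 0.257% of the 2 genes' counts, with 0.334% and 0.360% in the cKO-labelled libraries and 0.166% and 0.179% in the wild-type libraries. The labels do not say how the authors' counting treated reads that align to several places.

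**Figure D3:**
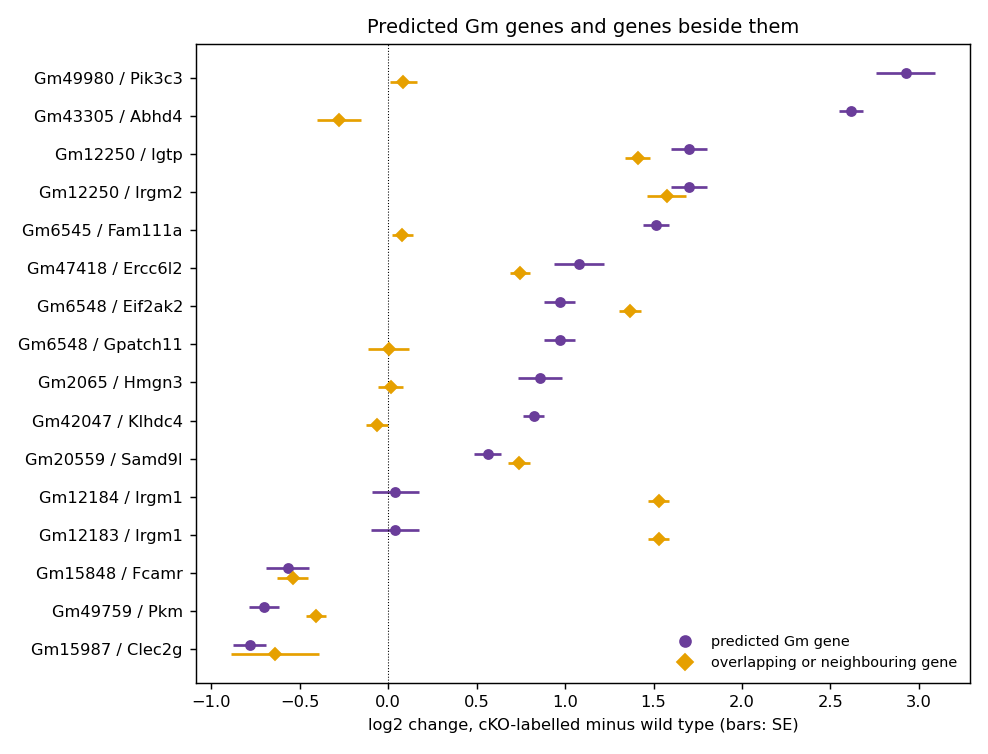
Log2 change (cKO-labelled minus wild type, bars are SE) of selected Gm genes (purple circles) and of a gene that overlaps or lies near each (yellow diamonds). Gm12250, Gm47418, Gm20559 and Gm6548 rose together with the neighbour shown (Eif2ak2 for Gm6548). Gm49980, Gm43305, Gm6545, Gm2065 and Gm42047 rose with a shown neighbour that was not called. Gm12184 and Gm12183, 35.3 and 108.3 kb from Irgm1, stood near 0. The neighbours shown were selected and are not always the nearest. Mrpl22, nearer to Gm12250 (-0.13 ± 0.10), and Gm43197, overlapping Gm20559 (0.26 ± 0.18), were not called. Nearer to Gm6545 than Fam111a, A330040F15Rik was not called (0.50 ± 0.37) and Gm47242 rose by 1.52 ± 0.16.

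Within 10 kb, 55 of the 138 genes had an overlapping gene or a nearest tested neighbour, 39 of them overlapping. Of the 17 called genes with such a neighbour, the neighbour was called in 5, in the same direction for 3 (Gm6548 with Eif2ak2, Gm15848 with Fcamr, Gm49759 with Pkm) and in the opposite direction for 2. Over all 55 pairs 10 neighbours were called, beside 21.7% of all genes tested. These counts take a single neighbour for each gene, so Gm47242 beside Gm6545 and Iglv3 beside Gm42870 are not among the 5. Across the 55 pairs, Pearson's r between the log2 changes was 0.02, a description over genes of the same 4 libraries. At a limit of 50 kb it was -0.03 over 89 pairs, with 7 called neighbours of 23, 4 in the same direction.

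For 105 of the 138 genes a source gene was found, meaning a protein coding gene elsewhere with at least 90% identity over at least 50% of the Gm gene's length. They came from 88 source genes. Hnrnpa3, which encodes an RNA-binding protein, had 5 copies in the set, and Gvin1 and Rpl23a had 3 each. The median identity was 99.51%, so most of these pairs differ at a few bases or none. Gm10736 on chromosome 13 is shown as the simplest case, because its whole transcript of 78 bases is the complete coding sequence of the ribosomal protein gene Rpl41, with 0 mismatches.
Gm10736: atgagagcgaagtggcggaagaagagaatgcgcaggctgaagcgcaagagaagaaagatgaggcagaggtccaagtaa

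Gm10736 stood at 89.4 and 98.04 CPM in the cKO-labelled libraries, against 101 and 86.2 CPM in wild type, and Rpl41 at 529 and 654 CPM in the cKO-labelled libraries, against 752 and 602 CPM in wild type. Neither was called. Counts of a pair this alike cannot be told apart, and the same holds for 19 pairs that were identical over at least 99% of the Gm gene. In 9 of those 19 the Gm gene held more counts than its source, and over all 105 pairs it did so in 20. The median share of a pair's counts in the Gm gene was 20.3% (0.241% to 98.8%), a share of counts not corrected for length.

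**Figure D4:**
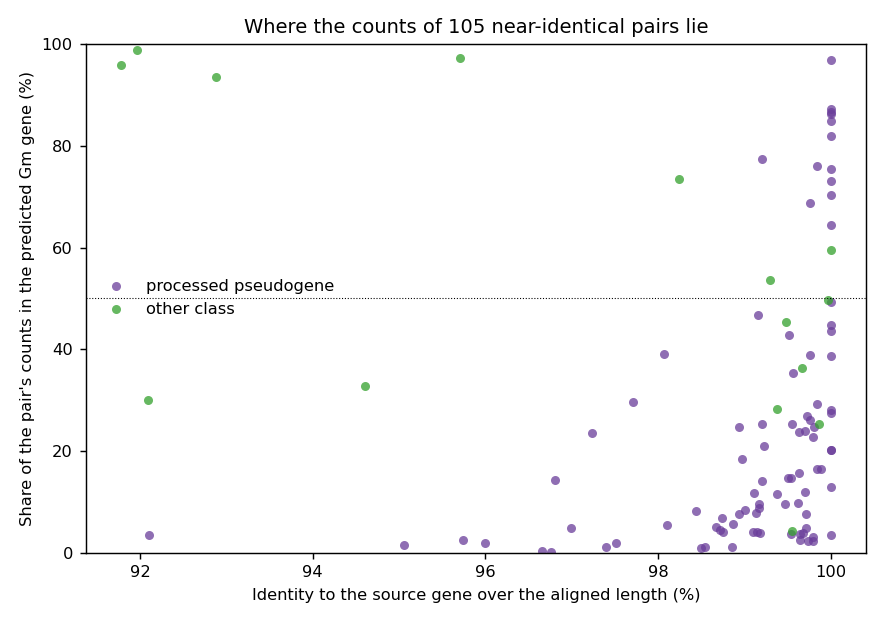
Share of a pair's counts that the table assigns to the Gm gene rather than to its source gene, against the identity of the pair, for 105 pairs (purple, processed pseudogenes; green, other classes), with a dotted line at equal shares. At 100% identity the shares spread from 3.57% to 96.9%.

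The extreme among identical pairs was Gm10123, a copy of Ppia, which encodes the peptidyl-prolyl isomerase cyclophilin A. By the median of the 4 libraries it was also the most abundant of the 138 genes per length, with 2457 and 2028 FPKM in the cKO-labelled libraries, against 2144.5 and 2252 FPKM in wild type. The table gives it 78924 counts and Ppia 2516, so that 96.9% of the counts of the pair stand under the pseudogene. Ppia was called lower by -0.26 ± 0.09 (adjusted p = 0.039), whereas Gm10123 had 0.02 ± 0.07 and was not called. With the counts of both summed, the log2 change was 0.01 ± 0.06 and was not called. Other abundant copies also took large shares of the counts of their pair. Gm7536 held 84.96% of the counts of Gm7536 and Rpl27a, Gm10275 held 73.2% with Rpl12, and Gm9794 held 38.9% with Rpl23, all 3 sources being ribosomal protein genes. Gm10076, a lincRNA-typed copy of Rpl41, held 45.3% of the counts of that pair, and its log2 change of -0.11 ± 0.06 was not called.

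Over 103 pairs with a tested source, the median size of the difference between the log2 changes was 0.10, and Pearson's r was 0.80, given as a description because the pairs share libraries and may share reads. In 51 pairs with 99% to under 100% identity r was 0.92, a group that includes Gm4070 (1.83) with Gvin1 (1.44). In the 90 processed pseudogene pairs, which leave out the 3 relatives of Gvin1, r was 0.66. Of 18 called Gm genes with a tested source, the source was called in the same direction for 12 and was not called for 6. It was called in the opposite direction for 0. Over all 103 pairs 30 sources were called, in either direction, beside 21.7% of all genes tested. Among processed pseudogenes the shared calls were 8 of 13. Genes that share a source, such as the 3 relatives of Gvin1, each add to the 12. The count of 12 was 7 without wild-type library 1. By identity, r was 0.63 in the 19 identical pairs and 0.70 in 31 pairs under 99%, and it was 0.43 in the 35 pairs with a ribosomal protein source. The difference exceeded 0.5 in 3 pairs, which are Gm6548, Gm37416 with the chromatin remodeller gene Chd9, and Gm8995 with Gvin1. Gm37416 matched Chd9 at 92.1% identity over only 177 aligned bases, 55.7% of its length, so Chd9 may not be its source. Conversely, 18 Gm genes that were not called had a source that was. Examples are Gm5182 (-0.18 ± 0.12) with Acaca, the first enzyme of fatty acid synthesis, which fell by 0.47 ± 0.07, and Gm4737 (-0.15 ± 0.07) with Ahcy, an enzyme of the methionine cycle, which fell by 0.25 ± 0.06.

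**Figure D5:**
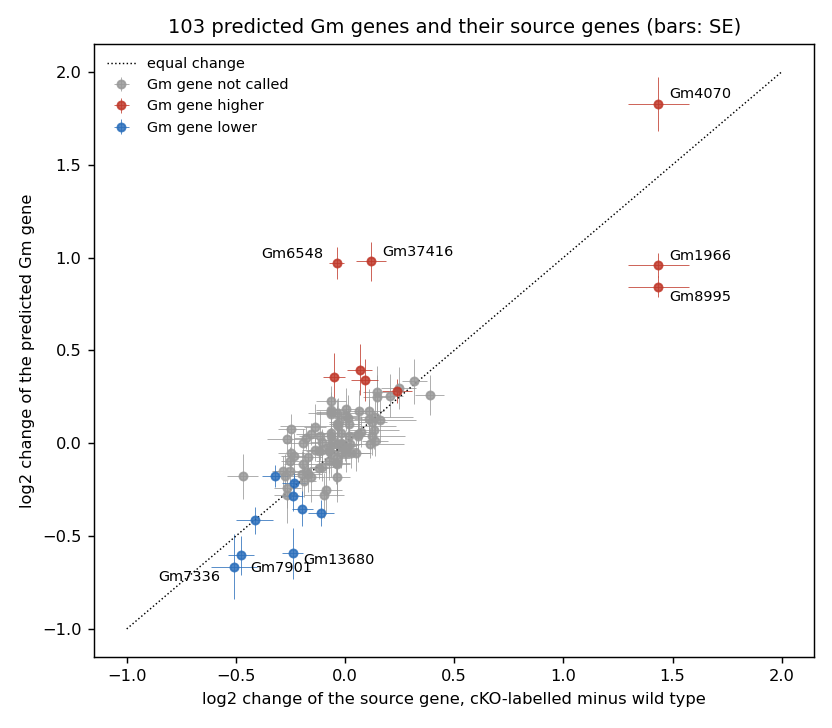
Log2 change (cKO-labelled minus wild type, bars are SE) of 103 Gm genes against that of their source gene, red for Gm genes called higher, blue for called lower and grey for not called, with a dotted line at equal change. Most points lie along the line, and Gm6548 and Gm37416 stand near 0.97 and 0.98 above sources near 0. For Gm37416 the match to Chd9 covers only 55.7% of its length.

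Gm7901, a copy of Phgdh, the first enzyme of serine synthesis, had 18.6 and 20.7 CPM in the cKO-labelled libraries, against 29.7 and 30.0 CPM in wild type. It fell by 0.60 ± 0.11 (adjusted p = 0.000171) and Phgdh fell by 0.48 ± 0.06. Gm10039, a copy of Atp5g1, which encodes a subunit of the mitochondrial ATP synthase, had 78.5 and 72.6 CPM in the cKO-labelled libraries, against 108 and 93.5 CPM in wild type. It fell by 0.41 ± 0.07 (adjusted p = 0.000138), and Atp5g1 fell by 0.41 ± 0.08. The 2 differ at 1 of 411 bases. The last 60 bases of Gm10039 (352 to 411) and the matching bases 404 to 463 of the Atp5g1 transcript, both from GENCODE M21, are printed with that base in capitals, to show the base that separates the pair.
Gm10039: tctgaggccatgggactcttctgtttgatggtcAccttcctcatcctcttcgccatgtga
Atp5g1: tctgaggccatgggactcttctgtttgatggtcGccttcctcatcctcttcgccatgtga

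Gm7336, a copy of the glycolytic enzyme gene Gapdh, had 13.1 and 8.24 CPM in the cKO-labelled libraries, against 14.7 and 19.0 CPM in wild type, and fell by 0.66 ± 0.18 (adjusted p = 0.00827). Its log2 change was -0.37 without cKO-labelled library 2, and -0.47 without wild-type library 2, and it was not called in either case. The row of Gapdh, 99.76% identical to this copy, fell by 0.51 ± 0.10. That row held only 36.1 and 28.7 CPM in the cKO-labelled libraries, against 50.5 and 41.9 CPM in wild type. Gm49759, a TEC locus within the pyruvate kinase gene Pkm on the same strand, had 45.7 and 36.4 CPM in the cKO-labelled libraries, against 68.5 and 65.2 CPM in wild type. It fell by 0.70 ± 0.09 (adjusted p = 1.62e-06), and Pkm fell by 0.41 ± 0.06.

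Copies of ribosomal protein genes formed the largest source group, with 35 Gm genes from 29 sources. None was called higher and 6 were called lower, with a median log2 change of -0.08. The 93 cytosolic ribosomal protein genes themselves had 0 higher and 26 lower calls and a median of -0.12, beside -0.006 over all genes tested. The shares called over all genes tested were 12.2% higher and 9.54% lower. Gm13680, 1 of 2 copies of Rps4x, had 19.2 and 13.4 CPM in the cKO-labelled libraries, against 25.7 and 23.6 CPM in wild type, and fell by 0.59 ± 0.14 (adjusted p = 0.00273). Without cKO-labelled library 2 it stood at -0.36 and was not called. The other copy, Gm9616, fell by 0.28 ± 0.09, and Rps4x by 0.24 ± 0.05. Gm12191, a copy of Rpl30 inside Cnot6, had 51.6 and 48.7 CPM in the cKO-labelled libraries, against 65.7 and 64.5 CPM in wild type. It fell by 0.37 ± 0.07 (adjusted p = 0.000373 by edgeR), while Rpl30 had -0.11 ± 0.06 and was not called. Gm12191 and Rpl30 differ at 1 of 348 aligned bases. Summed, their counts gave a log2 change of -0.13 ± 0.06, which was not called. Gm45855 and Gm10275 fell by 0.35 ± 0.10 and 0.18 ± 0.06, each with a source called lower (Rps2 and Rpl12). After removal of a trend with the GC content of transcripts, Gm45855 (-0.24) and Gm10275 (-0.13) were among the copies that lost their call. Gm45855 was also not called without wild-type library 2. Gm10275 was not called without either cKO-labelled library or without wild-type library 1, and Gm9616 was not called without cKO-labelled library 1 or wild-type library 1.

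Of the falling noncoding loci, 2 lay across genes of cell-surface receptors. Gm15848, antisense to Fcamr, the receptor for the Fc part of IgA and IgM, had 14.8 and 17.6 CPM in the cKO-labelled libraries, against 23.2 and 24.8 CPM in wild type. It fell by 0.57 ± 0.12 (adjusted p = 0.00133). Fcamr fell by 0.54 ± 0.09, and the next genes of the cluster, the polymeric immunoglobulin receptor gene Pigr and the IgM receptor gene Fcmr, fell by 0.81 ± 0.13 and 1.11 ± 0.07. Gm15987, on the strand opposite to the lectin gene Clec2g on chromosome 6, had 31.0 and 31.2 CPM in the cKO-labelled libraries, against 48.4 and 58.6 CPM in wild type. It fell by 0.78 ± 0.09 (adjusted p = 7.07e-07), and Clec2g had -0.64 ± 0.25 and was not called (adjusted p = 0.072).

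Gm42870, a TEC locus of the immunoglobulin lambda region on chromosome 16, fell by 0.65 ± 0.13 (12.03 and 11.4 CPM in the cKO-labelled libraries, against 17.5 and 19.4 CPM in wild type). Gm43388, which overlaps it on the opposite strand and is also 1 of the 138, had 0.13 ± 0.12, and the variable segment Iglv3, 6.4 kb away, rose by 0.55 ± 0.08. Neighbouring loci there thus did not share a direction. Gm32856, a lincRNA on chromosome 8, fell by 0.34 ± 0.11 (adjusted p = 0.033 by edgeR), but leaving out any 1 of the 4 libraries ended that call.

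Gm23935 has the lowest log2 change of the set, -2.72 ± 0.58 (adjusted p = 0.00125), and this value rests on 1 library. It is a 57-base locus on chromosome 16 (11144125 to 11144181, plus strand), typed as a miRNA, inside the zinc finger gene Zc3h7a on the opposite strand. Its sequence from GENCODE M21 is printed because so short a row took up to 19720 counts in a library.
Gm23935: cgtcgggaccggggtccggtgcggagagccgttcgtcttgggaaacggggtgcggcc

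It stood at 91.9 and 69.5 CPM in the cKO-labelled libraries, against 60.6 and 1002 CPM in wild type, so the genotypes overlapped and the wild-type libraries differed 16.5-fold. Without wild-type library 2 the log2 change was 0.41, in the other direction, and was called (adjusted p = 0.00109). DESeq2 gave -2.72 with an adjusted p of 0.30. The only other tested gene on the list of ribosomal RNA-like rows, Lars2, which encodes the mitochondrial leucyl-tRNA synthetase, was high in the same library, with 66.8 and 64.2 CPM in the cKO-labelled libraries, against 68.7 and 390 CPM in wild type. No other gene of the 138 differed by more than 3-fold within a genotype.

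The remaining rises were smaller. Gm45133, a TEC locus, rose by 0.48 ± 0.12, and Gm10282, a copy of the nucleosome-binding protein gene Hmgn2 with 99.3% identity, rose by 0.28 ± 0.06 beside Hmgn2 at 0.24 ± 0.07. Gm10282 was not called without cKO-labelled library 1. Gm3756 and Gm12966, which are copies of Tuba1b and Srsf5, rose by 0.36 ± 0.13 and 0.34 ± 0.11 while neither source was called. Gm7072, a protein coding locus 88.2% identical to the zinc finger gene Zfp994, rose by 0.34 ± 0.12. Without cKO-labelled library 2 the log2 change of Gm3756 was 0.0018, and with its source's counts summed it was -0.029. That of Gm12966 was 0.18 without wild-type library 1 and 0.20 without cKO-labelled library 1. Each of these last 3 lost its call without either of 2 libraries. For Gm3756 these were cKO-labelled library 2 and wild-type library 2. They were cKO-labelled library 1 and wild-type library 1 for Gm12966, and cKO-labelled library 2 and wild-type library 1 for Gm7072.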

How the data were processed

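The submitters' processing notes name HISAT2 2.0.1, HTSeq 0.6.1, cutadapt 1.9.1, bcl2fastq 2.17.1.14 and the build GRCm38. Settings, strandedness of the counting and the handling of reads with several alignments are not stated. The deposited table holds whole-number read counts per gene made by the authors, with their FPKM values and exonic lengths beside them. FPKM values served only to order levels per length. Libraries were made with the NEBNext Ultra kit, per the labels' protocols.

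The members and lists were chosen with earlier results of these data known. Counts were tested over the whole table with edgeR 4.0.16 (R 4.3.3): filterByExpr (minimum count 10, minimum total 15), TMM, quasi-likelihood test on all 4 libraries, Benjamini-Hochberg adjusted p under 0.05 over 14180 genes. CPM values use TMM-scaled library sizes, and errors of log2 changes are standard errors. Alternatives were DESeq2 1.42.0, RLE factors, no filter, each library left out, a replicate block, other library sizes, removal of a GC trend (GC content of each gene's longest GENCODE transcript) and other count minimums. On simulated data for this comparison (14105 genes) the fit recovered 100% of 67 genes changed 4-fold, 100% of 67 changed 2-fold and 93.9% of 66 changed 1.5-fold, with 12 false calls among 208. The simulation gave every gene the same spread (coefficient of variation 6.13%) and had no outlying library. It changed only genes above a minimum level, so recovery in the real libraries may be lower.

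Source genes were found by aligning GENCODE M21 transcripts with BLAST 2.17.0 (E-value limit 1e-10), without overlapping loci and without sources that carry a Gm symbol. Promoter windows are RefSeq's. Named genes were Adar, the 12 largest rises and 12 largest falls among called members, the 6 highest in CPM, members of the lists, members differing over 3-fold within a genotype, those nearest the 1000-count rule, and the neighbours and sources of these; others were chosen after their values were seen. The values of 2 called members are not reported here. Libraries of a genotype differed by more than counting noise (chi-square per gene 4.37 for cKO-labelled and 8.49 for wild type), so each was kept. Counts from PCR-amplified reads are not independent molecules. With 2 libraries against 2, an exact permutation test of a single gene cannot give a p below 0.333.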

Additional observations from a re-analysis of the deposited data

How the results depend on the processing

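Call counts (higher and lower) were 19 and 15 as reported, 19 and 15 with RLE factors and without ribosomal RNA rows, 19 and 16 without the filter, 18 and 15 after removal of the GC trend, and 14 and 10 with DESeq2. Leaving out a library gave 19 to 24 higher and 12 to 19 lower calls. With the replicate block there were 25 and 17; the numbers do not pair the libraries (correlation of same-numbered deviations -0.03 over all genes), so this is given only here. Summing Gm genes with their sources at 98% identity or more, an alternative chosen after seeing the data, gave 19 and 26. A minimum of 500 counts gave 32 and 19 among 246 genes, and 2000 counts gave 12 and 9 among 85. Calls shared with the source numbered 12, and 7 to 13 when a library was left out, the lowest without wild-type library 1. In every alternative fit 13 higher and 6 lower genes were called. Of the comparisons of named members with an alternative, 313 kept direction and call, 18 lost the call, 1 gained it and 9 changed sign.

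Values near 0 changed sign in some settings, and of called values Gm23935 and, summed with its source, Gm3756 (-0.029) did. Without each library in turn, log2 changes ran from -3.64 to 0.41 for Gm23935, -0.14 to 0.29 for Gm10074, -0.12 to 0.16 for Gm10123, -0.016 to 0.11 for Gm7536, -0.098 to 0.020 for Gm9794, -0.086 to 0.0093 for Eef1a1, -0.59 to 0.0097 for Gm38250, -0.026 to 0.051 for Hmgn3, -0.28 to 0.24 for Lsm5 and -0.013 to 0.18 for Pik3c3. After removal of the GC trend the sign changed for Gm10074 (-0.0089), Hmgn3 (-0.056) and Klhdc4 (0.025). The cause was not tested. Counts near the 1000-count minimum give standard errors of about 0.14 to 0.18 on the log2 scale, so changes of that size or smaller cannot be called at this depth. Changes larger than the standard error can also go uncalled. Gm47882, at -0.29 ± 0.14, was not called (adjusted p = 0.15 by edgeR).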
